A study of Homo sapiens with 60 samples.

Results

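The 10 genes were followed in SW1783 cells: the secreted cytokines IL6, LIF, IL11, IL1A, IL1B, CSF1, CSF2 and CSF3, the receptor subunit IL6ST and the inhibitor SOCS3. They are 10 of the 60675 genes in the deposited table, were chosen by name, and were all found there by Ensembl identifier. SW1783 is an established human astrocytoma line, and all 60 libraries come from this 1 line, harvested after 24 h of treatment. The vehicle cells received DMSO, at 0.1% by the sample labels but 2% by the text of the series. The sample labels give no DMSO content for the drug and extract groups. Wortmannin and LY294002, which inhibit phosphoinositide 3-kinases, and thioridazine, an antipsychotic phenothiazine, were given at 10 µM. Each of 6 herbal water extracts was given at 500, 100 and 20 µg/mL, called high, medium and low here. The extracts were Poria Cocos (poria), Atractylodis Rhizoma (atractylodes), Glycyrrhizae Radix (licorice), Panax Ginseng (ginseng), Angelicae Gigantis Radix (angelica) and Paeoniae Radix (peony). This gave 22 groups, of which 16 had 3 libraries and the 6 angelica and peony groups had 2. The labels do not say that replicates were separate cultures, so p-values measure only the spread between these libraries.

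IL6, LIF and IL11 belong to a family of cytokines that signal through IL6ST, also called gp130, a membrane protein shared by their receptor complexes. Ligand binding activates JAK kinases and the transcription factor STAT3, and STAT3 induces SOCS3, which binds gp130 and the kinases and shuts the signal off. IL1A and IL1B act on the IL1 receptor, which activates NF-kB and raises the transcription and stability of many cytokine messages, IL6 among them. CSF1, CSF2 and CSF3 drive the growth and survival of macrophages, granulocyte-macrophage precursors and neutrophils. Astrocytes and astrocytoma cells are known sources of several of these factors when they meet inflammatory stimuli.

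IL6 and CSF2 had the most similar patterns over the groups of any pair of the 10 genes, while IL11 fell where IL1B rose under 3 treatments. CSF2 was near the detection limit outside licorice and atractylodes, so its likeness to IL6 is only a description. For these patterns, the stretches before the start sites of IL6, CSF2, IL1B and IL11 are shown. They come from RefSeq on GRCh38.p14, are written 5′ to 3′ on the gene's strand, and begin 250 bases before the RefSeq start. IL6 lies on chromosome 7 (plus strand, chr7:22726950-22727146), CSF2 on chromosome 5 (plus strand, chr5:132073539-132073788), IL1B on chromosome 2 (minus strand, chr2:112836904-112837029) and IL11 on chromosome 19 (minus strand, chr19:55370464-55370713). The IL6 and IL1B stretches end where an exon annotated in GENCODE 29 begins. Capitals mark matches to a motif on either strand.
IL6: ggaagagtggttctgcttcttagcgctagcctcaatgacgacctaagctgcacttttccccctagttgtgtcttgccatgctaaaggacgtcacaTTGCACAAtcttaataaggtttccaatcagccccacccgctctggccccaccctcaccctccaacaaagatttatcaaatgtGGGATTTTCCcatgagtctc
CSF2: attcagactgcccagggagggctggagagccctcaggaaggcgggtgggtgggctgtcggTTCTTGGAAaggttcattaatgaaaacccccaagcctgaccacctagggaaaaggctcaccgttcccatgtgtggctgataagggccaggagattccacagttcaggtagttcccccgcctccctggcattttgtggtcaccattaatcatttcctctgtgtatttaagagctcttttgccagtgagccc
IL1B: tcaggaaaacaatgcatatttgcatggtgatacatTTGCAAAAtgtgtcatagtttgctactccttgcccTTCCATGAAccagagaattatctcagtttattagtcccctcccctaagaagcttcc
IL11: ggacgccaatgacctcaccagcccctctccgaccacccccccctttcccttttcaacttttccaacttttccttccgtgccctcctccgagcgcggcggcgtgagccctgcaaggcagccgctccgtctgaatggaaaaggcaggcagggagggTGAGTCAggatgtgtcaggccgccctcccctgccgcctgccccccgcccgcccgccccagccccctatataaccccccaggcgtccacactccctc
The search of the full 250 bases covered 5 motifs: the NF-kB decamer consensus, AP-1 (TGANTCA), C/EBP (TTGCNNAA), STAT (TTCNNNGAA) and CRE (TGACGTCA). The IL6 capitals are a C/EBP match from base -155 to -148 and an NF-kB match, GGGATTTTCC, from base -73 to -64. CSF2 holds a STAT match from -190 to -182, IL1B a C/EBP match from -215 to -208 and a STAT match from -180 to -172, and IL11 an AP-1 match from -96 to -90. Of 35116 RefSeq starts searched in the same way, 9.96% held the NF-kB consensus, 9.05% the C/EBP, 6.57% the AP-1, 6.57% the STAT and 1.65% the CRE letters. A match describes letters in a window and does not show binding. Sequence was found for 7 of the 10 genes. Of those not shown, IL1A held AP-1 matches before both its RefSeq starts, and IL6ST an NF-kB match from -53 to -44. The IL1A match from -105 to -99 of the first start and that from -12 to -6 of the second are the same site. All of these IL1A and IL6ST matches lie past the point where an exon annotated in GENCODE 29 begins.

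The libraries held 19.45 to 30.87 M counts (median 26.05 M, where M is mega), and levels are given as CPM, the count of a gene per 1 M counts of its library, scaled by TMM. All 10 genes passed the filter on low counts that left 17919 genes, but CSF2 reached the filter's level of 0.384 CPM in only 14 of 60 libraries and CSF3 in 36. Among markers of the labelled cell type, in CPM without TMM scaling, VIM was at 5851 CPM, CD44 at 2670 CPM and SOX9 at 79.1 CPM in vehicle cells, while GFAP was at 0.0809, S100B at 0.117 and AQP4 at 0.0112 CPM. Of 10 leukocyte markers, TYROBP was at 0 in all 60 libraries and CD3E in 57, PTPRC was at 8.49 and CSF1R at 2.65 CPM, and the summed level of the list ran from 7.71 CPM in licorice high cells to 14.8 CPM in peony high cells. The peony high libraries stood furthest apart within their group (root mean square log2 distance 0.583), followed by the angelica low pair (0.455), while libraries in groups of 3 lay 0.327 to 0.434 from their group mates. Distances in pairs are to 1 library and in groups of 3 to the mean of 2, so they are not directly comparable. The titles put all 60 libraries in 1 batch. The sample codes open with a field that is A1 for vehicle, 1 for the drugs and 2, 3 or 4 for pairs of extracts. What this field stands for is not stated, and against vehicle it cannot be told apart from the treatment, while all doses of an extract share it.

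Per kilobase of annotated exon, IL6ST was the most abundant of the 10 in vehicle cells at 63.6 CPM per kb, followed by IL11 (38.4), CSF1 (28), LIF (14.0) and SOCS3 (9.07). IL6 stood at 2.80 and IL1B at 1.49 CPM per kb, and IL1A, CSF2 and CSF3 lay at 0.355, 0.166 and 0.112 CPM per kb. In licorice high cells the order shifted: IL6 reached 26.5, IL1B 11.9, CSF3 7.59 and CSF2 4.55 CPM per kb, against 7.59 for SOCS3. In bulk RNA, more transcript per cell and more cells that make it cannot be told apart.

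The clearest changes were under licorice and atractylodes, and in both they grew with dose. After licorice high, 9 of the 10 genes rose and SOCS3 fell, so that all 10 were called, where 30.9% of the 17919 genes tested were called and 15.9% rose (edgeR quasi-likelihood test, Benjamini-Hochberg adjusted p under 0.05, as for every call here). After licorice medium 8 of 10 rose, against 25.2% of genes called and 12.4% that rose, and after licorice low 5 of 10 rose, against 3.29% called and 1.53% that rose. After atractylodes high 8 of 10 rose, where 13.9% of genes were called and 7.24% rose, and after atractylodes medium 6 rose, where 1.06% were called and 0.675% rose. After atractylodes low IL6 rose and LIF fell, where 0.804% of genes were called. The median log2 fold change over the 10 genes was 2.06, 1.235 and 0.45 after licorice high, medium and low and 1.265, 0.50 and 0.21 after atractylodes, while the median over all genes tested was 0.001 to 0.008 in these 6 comparisons. CSF2, which entered the test through its high level in these groups, is counted in the first 5 of these comparisons, and without it the counts are 9 (licorice high), 7 (medium), 4 (low), 7 (atractylodes high) and 5 (medium) of 9. The medians hold it too. All 21 comparisons against vehicle use the same 3 control libraries.

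**Figure D1:**
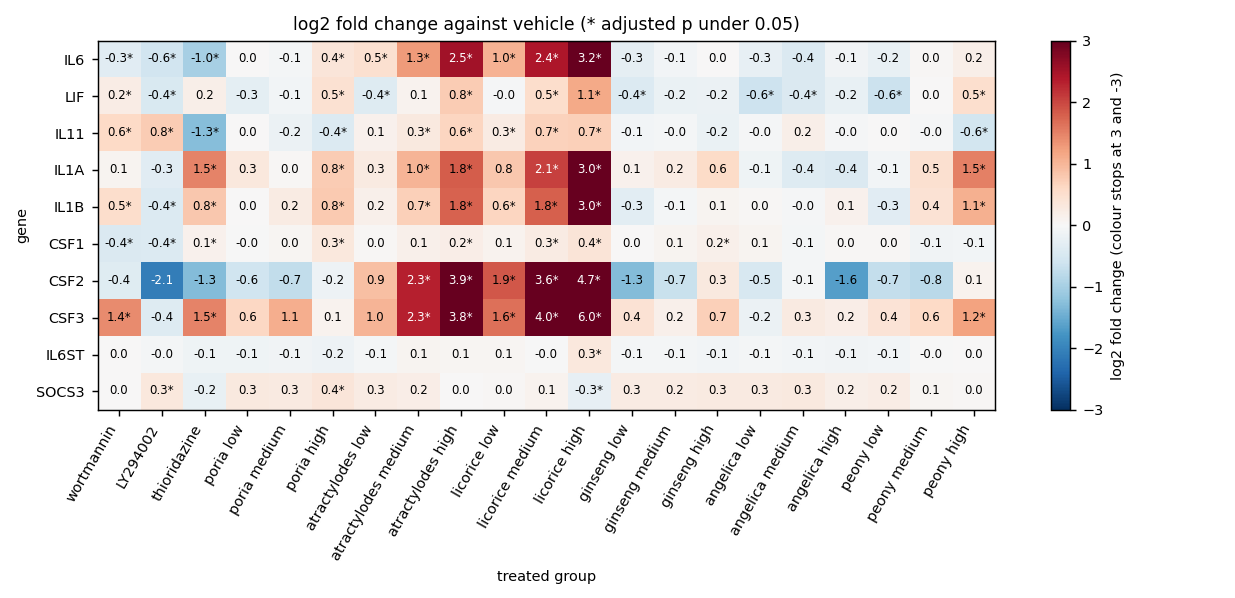
Log2 fold changes of the 10 genes (rows) in each of the 21 treated groups (columns) against vehicle, with an asterisk where the adjusted p was under 0.05 and colours that stop at 3 and -3. The licorice and atractylodes columns deepen from low to high dose for IL6, IL1A, IL1B, CSF2 and CSF3, and IL11 is blue under thioridazine, poria high and peony high.

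IL6 (chr7:22725884-22732002, plus strand; gene positions here are those of GENCODE 29 on GRCh38), the founding member of its family and a driver of the acute-phase response, stood at 5.67, 6.20 and 5.52 CPM in the 3 vehicle libraries. It stood at 54.3, 53.8 and 56.6 CPM after licorice high, 31.0, 32.5 and 30.3 CPM after licorice medium and 11.5, 11.7 and 12.8 CPM after licorice low. Each licorice dose lay above the one before it and above vehicle in all 3 libraries, with log2 fold changes of 3.24 ± 0.095 (SE; 9.46-fold, adjusted p = 1.86e-33), 2.43 ± 0.10 and 1.04 ± 0.10. After atractylodes, IL6 was at 33.9, 31.6 and 34.0 CPM at the high, 12.5, 13.4 and 15.9 CPM at the medium and 7.87, 7.83 and 8.46 CPM at the low dose. These are rises of 2.52 ± 0.10, 1.27 ± 0.10 and 0.475 ± 0.11 on the log2 scale, again with no overlap between doses. Atractylodes high and licorice medium overlapped with each other, as did atractylodes medium and licorice low, so atractylodes at a given dose sat near licorice at the next lower dose. Poria high (8.28, 6.70 and 7.37 CPM) lay above vehicle by 0.36 ± 0.11 (adjusted p = 0.0243). IL6 was called lower after all 3 drugs: thioridazine (3.04, 2.84 and 2.84 CPM, fell by 0.99 ± 0.13), LY294002 (3.47, 3.82 and 4.29 CPM, fell by 0.58 ± 0.12) and wortmannin (5.02, 4.03 and 4.80 CPM, fell by 0.33 ± 0.12, adjusted p = 0.027). All other extract groups had means between 4.31 and 6.48 CPM, and their libraries overlapped with neighbours in the order except between angelica high and peony low.

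Some of these IL6 calls were narrow. The rise after poria high lost its call without poria high library 1 or 3 or vehicle library 1 or 3 (adjusted p 0.057 to 0.157), and the rise after atractylodes low without atractylodes low library 2 or 3 or vehicle library 1 or 3 (0.0559 to 0.132). The fall after wortmannin lost it without wortmannin library 2 or vehicle library 1 or 2 (0.0526 to 0.201). STEAP1B and IL6-AS1 are annotated on the opposite strand over IL6, with mean counts of 22.7 and 20.9 per library, and whether strand was used in counting is stated in none of the sources used here. Reads of these genes therefore cannot be separated with certainty from those of IL6.

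**Figure D2:**
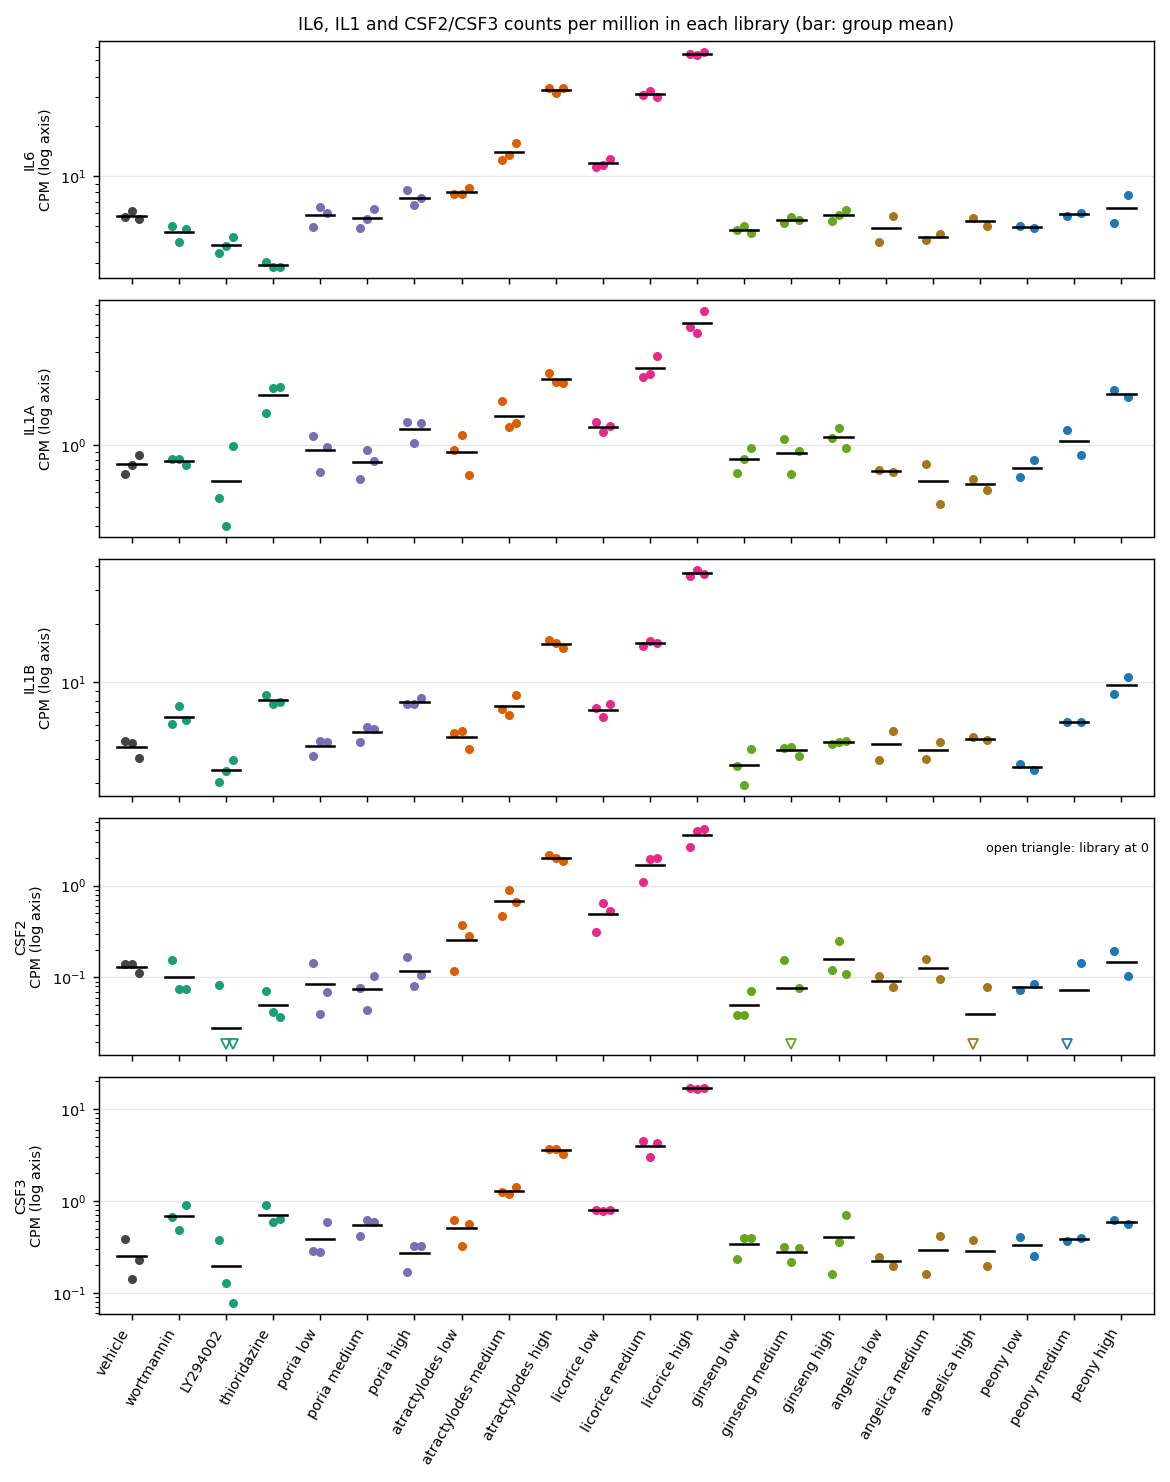
CPM on a log axis for IL6, IL1A, IL1B, CSF2 and CSF3 in each library (points) of the 22 groups, with bars at group means and open triangles for libraries at 0. All 5 genes are highest in licorice high cells and climb with dose under licorice and atractylodes, whereas thioridazine shows low IL6 beside raised IL1A and IL1B.

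LIF (chr22:30240447-30246851, minus strand), a gp130 ligand that keeps stem cells undifferentiated and acts on glia and neurons, was at 58.0, 56.4 and 52.8 CPM in vehicle cells. It was at 124, 118 and 125 CPM after licorice high, a rise of 1.13 ± 0.08 (2.19-fold, adjusted p = 7.49e-16), at 80.6, 101 and 99.8 CPM after atractylodes high (0.75 ± 0.08) and at 82.8, 78.8 and 79.0 CPM after licorice medium (0.525 ± 0.08). It also rose at the high dose of peony to 76.3 and 80.6 CPM (0.49 ± 0.09) and of poria to 70.8, 79.2 and 78.5 CPM (0.45 ± 0.08). LIF therefore passed the test for 4 of the 6 extracts at the high dose, and under poria, atractylodes, licorice and peony every dose lay above the one before in all libraries. At the low dose the picture was the opposite: means in all 6 extract groups lay below vehicle, from 35.7 to 54.9 CPM, and LIF fell after peony low (-0.64 ± 0.10), angelica low (-0.63 ± 0.10), ginseng low (-0.41 ± 0.08) and atractylodes low (-0.38 ± 0.08). LIF also fell after angelica medium (-0.44 ± 0.09). The angelica low call was lost without angelica low library 1 (adjusted p = 0.0508), the angelica medium call without either of its libraries (0.0627 and 0.14), the ginseng low call without ginseng low library 2 or vehicle library 1 or 2 (0.0522 to 0.105) and the atractylodes low call without its library 1 or vehicle library 1 or 2 (0.0563 to 0.113). Vehicle differs from the extracts in the first field of the sample code too, and only vehicle is labelled with DMSO. The low-dose difference cannot be told apart from either. LIF-AS2, on the opposite strand, had a mean count of 36.9 per library.

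Among the drugs, LIF parted wortmannin from LY294002, both inhibitors of phosphoinositide 3-kinases. It was at 65.8, 73.0 and 55.4 CPM after wortmannin and at 38.1, 42.8 and 41.9 CPM after LY294002, against 63.9, 65.6 and 59.1 CPM after thioridazine. LIF fell after LY294002 (-0.45 ± 0.08, adjusted p = 2.94e-05), and wortmannin lay above LY294002 by 0.66 ± 0.08 (adjusted p = 7.69e-08), with no overlap. Against vehicle, wortmannin gave 0.215 ± 0.08 (adjusted p = 0.0378) with overlapping libraries, a call lost without wortmannin library 1 or 2 or vehicle library 2 or 3 (0.0563 to 0.299) and in a fit of the 2 groups alone (0.227). Thioridazine gave 0.17 ± 0.08 (adjusted p = 0.0756), and was called without thioridazine library 3 (0.0468), with no filter on low counts (0.0172) and in a fit of the 2 groups alone (0.00185).

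IL11 (chr19:55364389-55370463, minus strand), a gp130 ligand tied to fibrosis and platelet formation, had a highest group mean 4.13 times its lowest, against 3.42 times for LIF, and its highest group was a drug. Vehicle libraries were at 96.2, 106.5 and 105 CPM. The highest group was LY294002 (156, 176 and 192 CPM, a rise of 0.77 ± 0.07), followed by licorice high (174, 165 and 169 CPM, 0.72 ± 0.07), licorice medium (174, 151 and 169 CPM, 0.69 ± 0.07), atractylodes high (170, 160 and 150 CPM, 0.64 ± 0.07) and wortmannin (148, 163 and 153 CPM, 0.595 ± 0.07). These 5 groups overlapped with their neighbours in the order and lay apart from all that followed. At the other end thioridazine gave 44.6, 42.9 and 39.6 CPM, a log2 fold change of -1.275 ± 0.075 (0.413-fold, adjusted p = 8.78e-20). Peony high (70.6 and 68.5 CPM, -0.56 ± 0.08) and poria high (80.4, 77.0 and 75.1 CPM, -0.40 ± 0.07) fell too, and each of these 3 groups stood apart from its neighbours. So under thioridazine, peony high and poria high IL11 fell while IL1B and IL1A rose. The smaller rises after atractylodes medium (0.28 ± 0.07, adjusted p = 0.0281) and licorice low (0.26 ± 0.07, adjusted p = 0.0303) each lost their call when single libraries were left out (atractylodes medium 1, 2 or 3 or vehicle 1 or 3, adjusted p 0.0512 to 0.253, and licorice low 1 or 3 or vehicle 1 or 3, 0.0718 to 0.206).

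IL1B (chr2:112829751-112836903, minus strand), the secreted IL1 made as a precursor that caspase-1 cuts, stood at 4.95, 4.85 and 4.05 CPM in vehicle cells. After licorice high it stood at 35.7, 38.4 and 36.6 CPM (2.99 ± 0.10, 7.97-fold, adjusted p = 1.17e-30), after licorice medium at 15.5, 16.5 and 15.9 CPM (1.78 ± 0.10) and after licorice low at 7.35, 6.61 and 7.71 CPM (0.64 ± 0.11). Atractylodes gave 16.5, 16.0 and 15.1 CPM at the high (1.78 ± 0.11) and 7.32, 6.73 and 8.61 CPM at the medium dose (0.71 ± 0.12). IL1B also rose after peony high (8.68 and 10.7 CPM, 1.08 ± 0.12), thioridazine (8.63, 7.73 and 7.95 CPM, 0.81 ± 0.11), poria high (7.74, 7.74 and 8.30 CPM, 0.78 ± 0.11) and wortmannin (6.07, 7.50 and 6.36 CPM, 0.52 ± 0.12). It was called higher in 9 of 21 comparisons with vehicle, the most of the 10 genes, and lower in 1, LY294002 (3.05, 3.48 and 3.95 CPM, -0.40 ± 0.13, adjusted p = 0.0113). That fall lost its call without LY294002 library 1 or vehicle library 1 or 2 (0.0523 to 0.0949). Wortmannin lay above LY294002 by 0.92 ± 0.12 (adjusted p = 1.32e-07).

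IL1A (chr2:112773915-112784590, minus strand), which is active as made and is kept in cells or on their surface, was much lower, at 0.657, 0.744 and 0.863 CPM in vehicle cells, and it rose in 7 of the 9 comparisons with vehicle in which IL1B rose. It stood at 5.82, 5.33 and 7.42 CPM after licorice high (3.04 ± 0.22), 2.77, 2.88 and 3.79 CPM after licorice medium (2.06 ± 0.23) and 2.94, 2.58 and 2.52 CPM after atractylodes high (1.825 ± 0.235). Peony high (2.27 and 2.05 CPM, 1.51 ± 0.27) and thioridazine (1.61, 2.34 and 2.39 CPM, 1.48 ± 0.24) came next. The rises after atractylodes medium (1.03 ± 0.25, adjusted p = 0.0231) and poria high (0.77 ± 0.26, adjusted p = 0.0428) lost their calls without atractylodes medium library 1 or vehicle library 1 or 2 (0.0917 to 0.197), and without poria high library 1 or 3 or any vehicle library (0.0585 to 0.167). The poria high call was also lost with DESeq2 (0.0552) and with no filter on low counts (0.0706). Licorice low gave 0.81 ± 0.26, which did not pass (adjusted p = 0.0646), though its 3 libraries (1.42, 1.22 and 1.33 CPM) lay above vehicle. After wortmannin, where IL1B rose, IL1A gave 0.075 ± 0.28 (adjusted p = 0.873). IL1A fell in no comparison with vehicle by this test. The peony high libraries, which the rises of IL1A and IL1B there rest on, are the pair that stood furthest apart.

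CSF3 (chr17:40015361-40017813, plus strand), the granulocyte factor, had the largest log2 fold change of the 10 genes after licorice high and medium, whereas after atractylodes high CSF2 (3.89) lay above it (3.81). Vehicle libraries held 0.381, 0.142 and 0.225 CPM, while licorice high libraries held 17.1, 16.7 and 16.8 CPM, a log2 fold change of 6.045 ± 0.26 (66.03-fold, 95% interval 5.53 to 6.56 on the log2 scale, adjusted p = 1e-25). Licorice medium gave 4.52, 3.05 and 4.22 CPM (3.95 ± 0.29), atractylodes high 3.70, 3.71 and 3.28 CPM (3.81 ± 0.29), atractylodes medium 1.24, 1.19 and 1.403 CPM (2.33 ± 0.34) and licorice low 0.794, 0.786 and 0.807 CPM (1.65 ± 0.36). These groups fell in steps with little spread, and apart from licorice medium and atractylodes high none of these 5 overlapped with the next in the order except licorice low with thioridazine. Smaller rises were called after thioridazine (0.895, 0.585 and 0.634 CPM, 1.49 ± 0.37), wortmannin (0.661, 0.485 and 0.892 CPM, 1.42 ± 0.38) and peony high (0.627 and 0.555 CPM, 1.21 ± 0.43, adjusted p = 0.0384). The peony call was lost without either peony high library or vehicle library 2 or 3 (0.0744 to 0.208) and in a fit of the 2 groups alone (0.102). LY294002 was at 0.376, 0.129 and 0.0767 CPM, and wortmannin lay above it by 1.80 ± 0.41 (adjusted p = 0.00121), or by 2.69 without LY294002 library 1.

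CSF2 (chr5:132073790-132076170, plus strand), the granulocyte-macrophage factor, was near the detection limit outside licorice and atractylodes. It passed the filter on low counts only through groups in which it was high, with all libraries past the filter's level in atractylodes high and medium and licorice high and medium. A gene that passes in this way had to differ, so its values and calls are a description. The vehicle libraries held 4, 4 and 3 counts (0.138, 0.142 and 0.113 CPM), and 5 of the 60 libraries held none, where 3 counts, the approximate 95% upper limit for a count of 0, correspond to 0.0968 to 0.145 CPM over the libraries. After licorice high CSF2 was at 2.66, 3.90 and 4.18 CPM (4.72 ± 0.39, 26.35-fold, 95% interval 3.95 to 5.49 on the log2 scale), after atractylodes high at 2.17, 2.00 and 1.88 CPM (3.89 ± 0.41) and after licorice medium at 1.10, 1.961 and 2.00 CPM (3.63 ± 0.42). Atractylodes medium gave 0.471, 0.903 and 0.663 CPM (2.33 ± 0.47, adjusted p = 0.00236). Licorice low gave 0.311, 0.643 and 0.524 CPM (1.865 ± 0.49, adjusted p = 0.0206), a call lost without licorice low library 2 or 3 or any vehicle library (0.058 to 0.121). LY294002 held 2, 0 and 0 counts and did not pass (adjusted p = 0.0554), except without its library 1 (0.00789).

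CSF1 (chr1:109910242-109930992, plus strand), the macrophage factor, was abundant and moved little. It was at 148, 147 and 160 CPM in vehicle cells and ranged from a mean of 112 CPM after wortmannin to 197 CPM after licorice high. Both kinase inhibitors lowered it, wortmannin to 113, 106 and 117 CPM (-0.44 ± 0.05) and LY294002 to 112, 113 and 120 CPM (-0.40 ± 0.05), and the difference between them was -0.04 ± 0.05 (95% interval -0.14 to 0.06). It rose after licorice high (208, 194 and 189 CPM, 0.38 ± 0.05), poria high (188, 186 and 193 CPM, 0.32 ± 0.05), licorice medium (184, 184 and 176 CPM, 0.26 ± 0.05) and atractylodes high (167, 172 and 186 CPM, 0.20 ± 0.05). The atractylodes high call was lost in a fit of the 2 groups alone (adjusted p = 0.088). The calls after ginseng high (165, 171 and 170 CPM, 0.15 ± 0.05, adjusted p = 0.0448) and thioridazine (165, 157 and 174 CPM, 0.13 ± 0.05, adjusted p = 0.0316) were lost when single libraries were left out (any ginseng high library or vehicle 1 or 2, 0.0638 to 0.177, and thioridazine 1 or 3 or vehicle 1 or 2, 0.0576 to 0.196) and with no filter on low counts (0.0821 and 0.0717). The thioridazine and vehicle libraries overlapped.

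IL6ST (chr5:55935095-55994993, minus strand), the shared signal-transducing receptor, was the steadiest of the 10. Vehicle libraries were at 605, 578 and 591 CPM, and group means ran from 532 CPM after poria high to 740 CPM after licorice high, a ratio of 1.39. Licorice high (702, 790 and 729 CPM, 0.32 ± 0.06, adjusted p = 5.43e-05) was the only group called against vehicle in the fit over all groups. It stood apart from the next in the order. In fits of the 2 groups alone IL6ST was called lower after thioridazine (adjusted p = 0.00035), poria high (0.000442), angelica high (0.0178) and poria low (0.0243). With no filter on low counts it was called lower after thioridazine (0.0221) and poria high (0.0201). Licorice medium library 3 was at 481 CPM beside 611 and 665 CPM in its group mates. The pseudogene IL6STP1 held at most 3 counts in any library.

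SOCS3 (chr17:78356778-78360077, minus strand), the STAT3-induced inhibitor, did not follow the ligands. It was at 25.1, 25.3 and 24.0 CPM in vehicle cells and at 18.3, 21.5 and 22.5 CPM after licorice high, its lowest group, where it fell by 0.26 ± 0.10 on the log2 scale (adjusted p = 0.0394). That call was lost without licorice high library 1 or 2 or any vehicle library (0.0532 to 0.249). The highest groups were poria high (27.4, 34.8 and 32.8 CPM, 0.35 ± 0.09, adjusted p = 0.00813, and 0.085 without poria high library 2) and LY294002 (28.8, 31.8 and 31.6 CPM, 0.31 ± 0.09, adjusted p = 0.00699). Means in all 6 low-dose extract groups lay above vehicle, from 25.6 to 30.2 CPM, and means in 17 of the 18 extract groups did so, but poria high was the only extract group called higher in the fit over all groups. With no filter on low counts 7 more extract groups were called higher (adjusted p 0.00579 to 0.0428), and in fits of the 2 groups alone also 7 (0.00111 to 0.0464). Both settings also called SOCS3 lower after thioridazine (0.0102 and 0.00223). The vehicle group overlapped with wortmannin above it and not with thioridazine below it. For this gene, too, the code field, the DMSO label and the treatment cannot be told apart against vehicle.

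**Figure D3:**
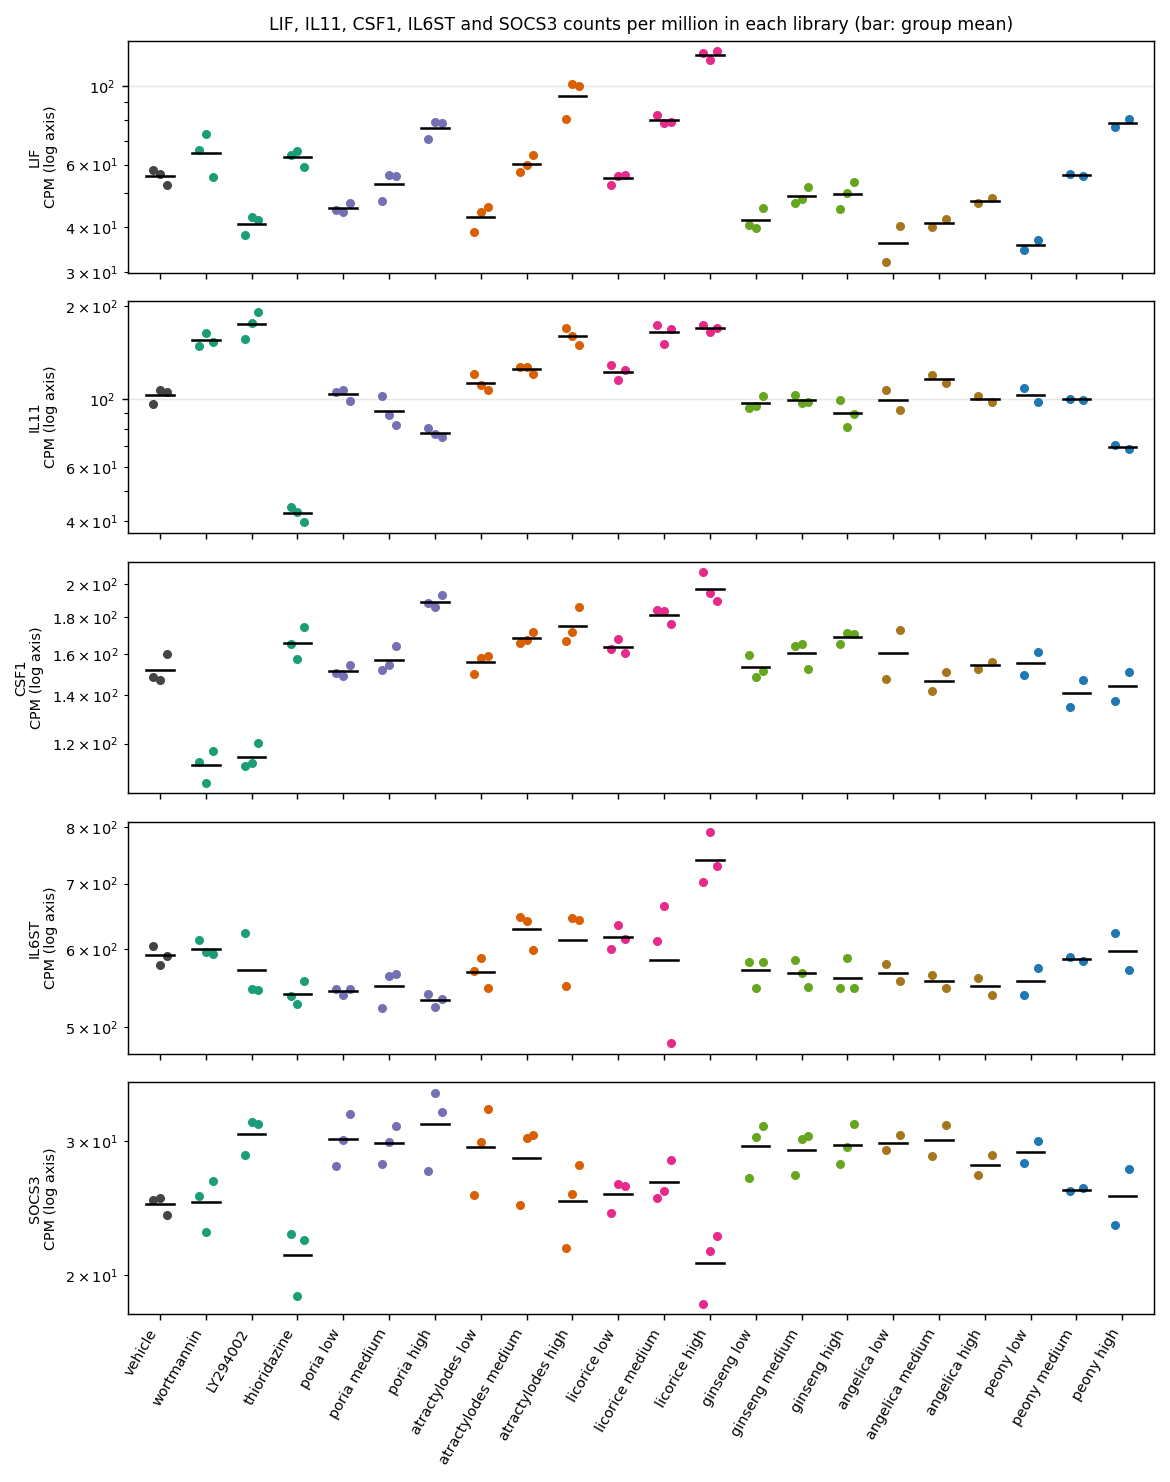
CPM on a log axis for LIF, IL11, CSF1, IL6ST and SOCS3 in each library (points) of the 22 groups, with bars at group means. LIF climbs with dose under poria, atractylodes, licorice and peony, IL11 is lowest after thioridazine, and IL6ST and SOCS3 stay within a narrow band.

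Within an extract, high against low dose compares libraries that share this code field. CSF2 is counted in the calls under licorice and atractylodes below. The filter admitted it through groups of these extracts, so its values and calls are a description. Licorice high against low called all 10 genes, 9 higher and SOCS3 lower, where 18.2% of genes were called and 9.02% rose. CSF3 differed by 4.40 ± 0.22, CSF2 by 2.85 ± 0.32, IL1B by 2.35 ± 0.09, IL1A by 2.23 ± 0.20, IL6 by 2.20 ± 0.09 and LIF by 1.16 ± 0.08 on the log2 scale. Atractylodes high against low called 8 genes, all higher, where 4.10% were called and 2.24% rose. The differences of CSF2 (2.98 ± 0.38), CSF3 (2.79 ± 0.27) and IL6 (2.04 ± 0.09) led. Mean CPM at the high dose was 3.07 times that at the low dose for IL1B and 2.94 times for IL1A. For LIF it was 2.19 times (1.13 ± 0.08). The SOCS3 call under licorice was lost without licorice high library 1 or licorice low library 2 or 3 (adjusted p 0.0745 to 0.199), and the CSF1 call under atractylodes (0.17 ± 0.05, adjusted p = 0.0417) without atractylodes high library 3 or any atractylodes low library (0.0573 to 0.204) and in a fit of the 2 groups alone (0.433).

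Under peony and poria fewer of the 10 genes were called, and IL11 fell where it rose under licorice and atractylodes. Peony high against low called 4 of 10 genes, where 5.90% of genes were called: IL1A (1.59 ± 0.305), IL1B (1.425 ± 0.14) and LIF (1.14 ± 0.10) were higher and IL11 lower (-0.57 ± 0.09). IL6 differed by 0.41 ± 0.14 and did not pass (adjusted p = 0.0798, and 0.0124 without peony high library 1). Poria high against low called 5, where 5.51% were called: IL1B (0.77 ± 0.11), LIF (0.75 ± 0.08), CSF1 (0.32 ± 0.05) and IL6 (0.35 ± 0.11, adjusted p = 0.0488) were higher and IL11 lower (-0.42 ± 0.07). The IL6 call was lost without poria high library 1 or 3 or poria low library 1 or 3 (0.0871 to 0.318), in a fit of the 2 groups alone (0.0654) and with no filter on low counts (0.063). Angelica high against low called LIF alone (0.40 ± 0.11, adjusted p = 0.0472), where 0.943% of genes were called, and lost it without either angelica high library or angelica low library 1 (0.203 to 0.396) and in a fit of the 2 groups alone (0.552). Ginseng high against low called none of the 10 in edgeR's test, where 0.653% of genes were called, although 5 of 10 had an unadjusted p under 0.05, and DESeq2 called 0.

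The high-minus-low difference itself varied among the 6 extracts for 8 of the 10 genes by an F test, where 16.2% of genes passed. For CSF2, 1 of the 8 (adjusted p = 0.0114), the filter had admitted the gene through licorice and atractylodes, so its value is a description. The smallest adjusted p was that of IL6 (4.3e-20), followed by IL1B (2.32e-16), CSF3 (7.16e-13), IL11 (4.35e-12) and LIF (9.9e-09). IL6ST (adjusted p = 0.0583) and SOCS3 (0.208) did not pass.

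**Figure D4:**
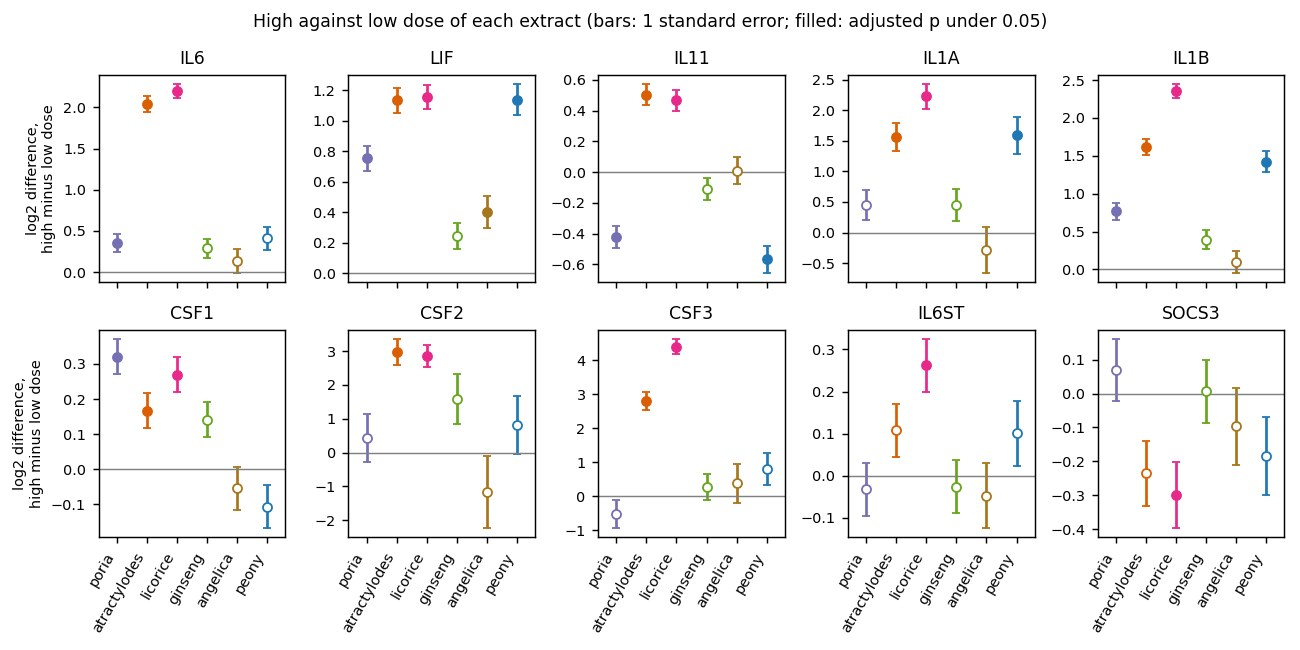
Log2 difference between high and low dose of each extract (x axis) for the 10 genes, with bars of 1 standard error and filled points where the adjusted p was under 0.05. Licorice and atractylodes lead for IL6, CSF2 and CSF3, peony joins them for LIF, IL1A and IL1B, and IL11 points up under licorice and atractylodes and down under poria and peony.

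The remaining high doses against vehicle were mixed. Poria high called 7 of the 10 genes, where 11.6% of genes were called: IL6, LIF, IL1A, IL1B, CSF1 and SOCS3 rose and IL11 fell. Peony high called 5, where 20.7% were called, with LIF, IL1A, IL1B and CSF3 higher and IL11 lower. IL6, at 5.26 and 7.70 CPM, did not pass (0.19 ± 0.13, adjusted p = 0.316). Its log2 fold change was 0.41 in a fit without 5 libraries chosen after seeing the data. That fit kept 1 peony high library, the one at 7.70 CPM, although both had the same distance to their group mate (0.583). Ginseng high called CSF1 alone, where 7.25% were called, and angelica high none, where 6.46% were called (edgeR, with 1 gene at an unadjusted p under 0.05, and DESeq2 called 0). At the medium dose, poria, ginseng and peony called none of the 10 in edgeR's test, where 1.47%, 0.569% and 2.55% of genes were called, with 4, 2 and 1 genes at an unadjusted p under 0.05 and 0 by DESeq2 in each. Angelica medium called LIF alone, where 2.91% were called. At the low dose, poria called none (0.419% of genes called in edgeR's test, 2 of the 10 at an unadjusted p under 0.05, and 1 by DESeq2, LIF), while ginseng, angelica and peony each called LIF alone, as lower, where 0.592%, 1.75% and 5.23% of genes were called.

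The 3 drugs changed the set in different ways, at the same 10 µM dose. Wortmannin called 6 of the 10 genes, where 31.7% of genes were called, LY294002 6, where 39.3% were called, and thioridazine 6, where 48.4% were called. IL11 rose after both kinase inhibitors and fell after thioridazine, and CSF1 fell after both and rose slightly after thioridazine. Cell type markers moved with thioridazine as well: VIM (-0.50 ± 0.055), CD44 (-0.41 ± 0.04) and the leukocyte marker PTPRC (-1.28 ± 0.11) fell. The leukocyte marker CSF1R (0.415 ± 0.14), the astroglial marker SLC1A3 (0.60 ± 0.065) and the endothelial markers KDR (0.70 ± 0.06) and PECAM1 (1.17 ± 0.28) rose. In all, 2 of 6 astroglial markers tested rose and 3 fell, and 1 of 3 leukocyte markers rose and 1 fell. In that comparison 24.6% of all genes rose and 23.8% fell. The summed endothelial and epithelial markers were at 49.7 CPM against 28.8 CPM in vehicle cells. The part of these markers in the thioridazine results was not tested. An F test found differences among the 3 drugs for 8 of the 10 genes, where 48.0% of genes passed, the exceptions being CSF2 (adjusted p = 0.268) and IL6ST (0.11). The adjusted p was smallest for IL11 (1.08e-27), CSF1 (3.12e-15) and IL1B (7.54e-12). Wortmannin and LY294002 differed directly in 4 genes, where 16.4% of genes were called: LIF, IL1B and CSF3 were higher and SOCS3 lower (-0.30 ± 0.09, adjusted p = 0.0214) after wortmannin. That SOCS3 call was lost without wortmannin library 2 or LY294002 library 2 or 3 (0.0795 to 0.132). IL11 differed by -0.175 ± 0.07 (95% interval -0.31 to -0.04, adjusted p = 0.0761, and 0.0124 without LY294002 library 1) and IL6 by 0.25 ± 0.13 (interval -0.003 to 0.506, adjusted p = 0.197).

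Genes that carry or receive these signals changed in both directions. Of 5 other gp130-family ligands and partners tested after licorice high, EBI3 and CTF1 rose and CLCF1 fell, with a list median of -0.10. Of 6 receptors tested, IL27RA (0.21 ± 0.06) and IL6R (0.43 ± 0.17) rose and OSMR, which pairs with gp130 for oncostatin M, fell from 235 to 203 CPM (-0.21 ± 0.06). Among 9 JAK-STAT transducers 2 rose and 3 fell, STAT3 from 220 to 184 CPM (-0.25 ± 0.03). Of 11 inhibitors other than SOCS3, 1 rose and 7 fell after licorice high, with a median of -0.20, SOCS6 (-0.28 ± 0.05) and PIAS3 (-0.27 ± 0.05) lower and PTPN2 higher (0.25 ± 0.05). Of 19 known STAT3 targets 5 rose and 4 fell, with a median of 0.04: CCND1, a cyclin, rose by 0.34 ± 0.04, and TNFRSF1A fell (-0.38 ± 0.04). Against the 15.9% of all genes that rose and 15.0% that fell there, these counts are small lists and no difference from all genes was tested.

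After atractylodes high the same lists gave 1 ligand higher (EBI3), 1 receptor lower (OSMR, -0.25 ± 0.06), 1 transducer lower (STAT3, -0.115 ± 0.03), 1 inhibitor higher and 3 lower, and 2 STAT3 targets higher and 5 lower, where 7.24% of all genes rose and 6.63% fell. The IL1 list gave 4 of 13 higher and 2 lower after atractylodes high, and 6 higher and 3 lower after licorice high. The IL1 receptor kinase IRAK2 rose from 22.1 to 43.7 CPM after licorice high (0.98 ± 0.05, adjusted p = 1.53e-21) and to 32.0 CPM after atractylodes high (0.54 ± 0.06), and IL33 rose from 10.7 to 18.2 CPM after licorice high (0.77 ± 0.09). IL1RL1, the IL33 receptor, rose after both (0.54 ± 0.06 and 0.31 ± 0.06) and fell after thioridazine from 40.1 to 12.6 CPM (-1.67 ± 0.06). The IL1 receptor gene IL1R1 fell after atractylodes high from 43.8 to 36.3 CPM (-0.27 ± 0.06).

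Of 11 factors that control the decay of cytokine messages, 3 rose and 4 fell after licorice high and 2 rose and 3 fell after atractylodes high, where 15.9% of all genes rose and 15.0% fell in the first comparison and 7.24% and 6.63% in the second. ZC3H12A, the endonuclease also called regnase-1 that degrades IL6 mRNA, rose from 10.3 to 33.6 CPM after licorice high (1.71 ± 0.06, adjusted p = 6.1e-29) and to 23.9 CPM after atractylodes high (1.215 ± 0.06), and its relative ZC3H12C rose by 0.76 ± 0.07 and 0.47 ± 0.07. ZFP36, another of the 11, fell after atractylodes high from 16.8 to 12.4 CPM (-0.44 ± 0.11). Of the receptors for the colony-stimulating factors and related ligands, 4 of 8 could be tested, and CSF1R fell after licorice high from 2.73 to 1.71 CPM (-0.66 ± 0.16). PTPRC, a leukocyte marker, fell in the same comparison from 8.73 to 5.58 CPM (-0.65 ± 0.11), and the summed leukocyte markers were lower in licorice high cells (7.71 CPM) than in vehicle cells (11.7 CPM). Of 6 astroglial markers tested 4 fell and none rose after licorice high, with a median of -0.295 (VIM -0.39 ± 0.055, SLC1A3 -0.39 ± 0.07 and CD44 -0.20 ± 0.04), and 5 fell after licorice medium. Their part in the results was not tested. After the drugs, SOCS1, another feedback inhibitor, fell from 5 CPM to 2.295 after wortmannin (-1.125 ± 0.16), 1.925 after LY294002 (-1.37 ± 0.16) and 1.435 after thioridazine (-1.80 ± 0.17), while SOCS3 rose only after LY294002. CLCF1, a gp130 ligand, fell from 31.6 to 15.7 CPM after thioridazine (-1.01 ± 0.07).

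Over the 22 group means, the log2 levels of IL6 and CSF2 (Pearson r = 0.971), IL1A and IL1B (0.942), IL1B and CSF3 (0.936) and LIF and IL1B (0.931) ran closest, and SOCS3 ran opposite to IL1A and IL1B (-0.692 each). IL11 had an r of 0.577 with IL6 and 0.108 with IL1A. The 22 means come from 1 cell line with 1 scaling, and 18 of them are doses of only 6 extracts. They are therefore not independent, and the values are descriptions. CSF2 passed the filter on low counts only through licorice and atractylodes groups and was near the detection limit elsewhere. Its r values, that with IL6 included, therefore largely restate that choice. Among 13795 genes whose mean reached 1 CPM, those whose pattern was most like that of IL6 were ZC3H12A (0.976), the chemokine CXCL8 (0.975, from 11.1 CPM in vehicle to 239 CPM in licorice high cells) and the NF-kB inhibitor NFKBIA (0.975, from 46.6 to 116 CPM). For CSF3 they were CTSS (0.949), the complement component C3 (0.948) and the adhesion molecule ICAM1 (0.948, from 72.0 to 395 CPM), and for CSF2 C1QTNF1 (0.972), IL6 and CTSS (0.968). The genes most like IL1A and IL1B were SQOR (0.961 and 0.947), each other, and MTSS1 (0.935) and NTN1 (0.945). For LIF they were FAM167A (0.954), KRTAP2-3 (0.939) and IL1B, and for IL11 CSRP1 (0.941), RARB (0.927) and BDKRB2 (0.923). The highest values were lower for CSF1 (CDR2L 0.905, POLR3D 0.899 and VPS37A 0.896), IL6ST (NRIP1 0.871, SAMD9 0.860 and ABI3BP 0.854) and SOCS3 (CDKN2C 0.845, GALNT2 0.843 and NCAPD2 0.843).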

How the data were processed

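RNA from 60 SW1783 libraries was sequenced, and the authors deposited RSEM 1.3.3 expected counts for each gene, with no scaling between libraries. Per the submitters' processing notes, FastQC 0.11.9, Trim Galore 0.6.5 and STAR 2.7.3a and the build GRCh38 were used. Of its 279 columns, 219 match no sample given here and were not used. The 9.48% of values that were not whole at a tolerance of 1e-06 were rounded. Depth was 19.45 to 30.87 M counts per library, and CSF2 and CSF3, at a few counts in most libraries, are the least precise.

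Genes were filtered with filterByExpr (minimum count 10, minimum total 15), which left 17919, scaled by TMM and fitted in 1 edgeR 4.0.16 quasi-likelihood model of 22 groups (R 4.3.3, common coefficient of variation 0.051). The 28 comparisons and 2 F tests were two-sided, with Benjamini-Hochberg adjustment over all genes tested, and calls have an adjusted p under 0.05. The SE is the size of the log2 fold change over the square root of F, and intervals are 1.96 SE either side. The code was tested on simulated data. Alternatives were RLE size factors, no filter, a replicate block, each pair of groups alone, DESeq2 1.42.0, and leaving out each library. Another, chosen after seeing the data, left out 5 libraries: peony high 1, atractylodes high 1, ginseng low 1, licorice medium 3 and angelica low 2. Their distances to group mates were 0.384 to 0.583, which are not the 5 largest. The members and lists were chosen with earlier results of these data known. All 10 members are named, as are up to 3 genes per list with the smallest p among those called, and the 3 genes with the highest correlation to each member. Annotation is GENCODE 29, and promoter sequence is RefSeq.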

Additional observations from a re-analysis of the deposited data

Results flagged for a closer look

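The high-minus-low difference varied among the 6 extracts by an F test over all libraries for 8 of the 10 genes, with adjusted p-values of 4.3e-20 for IL6, 9.9e-09 for LIF, 4.35e-12 for IL11, 3.14e-06 for IL1A, 2.32e-16 for IL1B, 6.9e-05 for CSF1, 0.0114 for CSF2 and 7.16e-13 for CSF3. CSF2 passed the filter on low counts only through licorice and atractylodes groups, so its value is a description. For IL6 the differences ran from 0.14 ± 0.15 on the log2 scale under angelica to 2.20 ± 0.09 under licorice. IL11 was the gene whose difference was called in opposite directions, 0.50 ± 0.07 under atractylodes and 0.47 ± 0.07 under licorice against -0.42 ± 0.07 under poria and -0.57 ± 0.09 under peony.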

How the results depend on the processing

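No log2 fold change that was called in either fit changed sign under any alternative. DESeq2 gave an adjusted p for 243 of the 280 fold changes and fits of the 2 groups alone for 250. Counts from these 2 settings cover only those. In comparisons with 0 or 1 of the 10 genes called, counts, against vehicle unless stated, changed as follows. Fitting the 2 groups alone gave 3 for angelica high, 4 for angelica medium, 3 for ginseng high, 2 for ginseng medium, 2 for peony low, 1 for peony medium, 3 for poria low and 1 for poria medium, and 0 for angelica high against low. With no filter on low counts they were 1, 2 and 2 for angelica high, medium and low, 2 each for ginseng high and low and poria low, 1 for poria medium, and 1 for ginseng high against low. DESeq2 gave 2 for angelica medium, 2 for ginseng high and 1 for poria low, and RLE size factors 0 for ginseng high. Leaving out 5 libraries, chosen after seeing the data, gave 2 for angelica low and 2 for ginseng low. Of the others, thioridazine went from 6 to 9 in the 2 groups alone and to 8 with no filter, atractylodes low from 2 to 3 with no filter, and the F test of the dose effect among extracts from 8 to 10 with no filter.

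Replicate numbers were taken to pair libraries where same-numbered deviations correlated above 0.1 for each of 3 shared numbers. No comparison met this (correlations -0.067 to 0.225). Comparisons with angelica or peony share only 2 numbers, so they could not meet it. With 2 or 3 libraries per group, the rule cannot show whether same-numbered libraries were handled together. With the replicate block, 267 of 280 fold changes kept their call and 13 gained one. Counts became 2 for angelica low, 2 for angelica medium, 2 for ginseng high, 2 for ginseng low, 2 for peony low, 1 for peony medium, 2 for poria low and 1 for poria medium, 8 for thioridazine and 3 for atractylodes low. SOCS3 was called higher with the block in 8 more extract groups (adjusted p 0.0072 to 0.0493) and lower after thioridazine (0.00582), where LIF was called higher (0.0434).

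Leaving out 1 library at a time, 1484 of 1580 fold changes kept their call, 85 lost it and 11 gained one. Counts ran from 0 to 1 for angelica low, angelica medium, atractylodes low, ginseng high, ginseng low and for angelica and ginseng high against low, from 3 to 4 for licorice low, and from 9 to 10 for licorice high. Other comparisons lost calls too. Poria high lost IL6 and IL1A together without its library 1 or 3 or vehicle library 1 or 3. Wortmannin lost IL6 and LIF together without its library 2 or vehicle library 2. Atractylodes medium lost IL11 and IL1A together without its library 1 or vehicle library 1. Where leaving out a library left 1 in a group, that library was assumed to vary like the other groups. Depth limits CSF2 most, with 5 libraries at 0.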
